A study of Homo sapiens with 2 samples.

Results

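Annexins are a family of cytosolic proteins that bind phospholipid membranes in the presence of calcium. A conserved core of annexin repeats docks on negatively charged lipids such as phosphatidylserine, and a variable N-terminal tail binds partners, many of them S100 proteins. In epithelial and cancer cells they are known for membrane repair, vesicle traffic, cell-surface plasmin formation and the control of inflammation. The genes described here are the 10 annexin genes ANXA1, ANXA2, ANXA3, ANXA4, ANXA5, ANXA6, ANXA7, ANXA9, ANXA10 and ANXA11, taken by gene name from a table of 27655 genes. All 10 had a row.

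The study used PC9-BrM3 cells, a brain-metastatic line derived from the PC9 lung adenocarcinoma line, in routine culture. The labels give 1 sample with PCDH1 knockdown (shPCDH1) and 1 control sample of WT genotype (shNC), and state neither the hairpin sequence nor whether cells were cloned or cultured separately. PCDH1 is a protocadherin, a cell adhesion protein, and the comparison asks how expression differs with and without its knockdown. In the authors' deposited table the fold change runs from code 8 over code 7, and the header names 6 libraries. No label says which code is shPCDH1, so each direction is given as group 8 relative to group 7. The 20 columns holding levels of single libraries or coded groups carry no labelled sample and were not used here. Levels, depth and the spread between libraries are therefore not shown, and the labelled cell type was not checked by marker levels.

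For the targeted gene PCDH1 the authors' deposited table gives -1.38 ± 0.14 on the log2 scale. Here and in all values that follow, ± is the standard error that the deposited p-value implies if it comes from a Wald test. The labels do not say whether libraries are separate cultures, and p-values reflect only how much these libraries vary, which may be technical variation. A gene was called where the deposited adjusted p was under 0.05. Among listed cell type markers, 2 of 5 epithelial, 0 of 4 leukocyte, 1 of 2 fibroblast, 1 of 3 endothelial and 0 of 2 astrocyte genes with a row were called. The 4 called in the authors' deposited table were the epithelial cadherin gene CDH1 at 0.38 ± 0.11, the keratin gene KRT18 at -0.50 ± 0.17, the collagen gene COL1A1 at 1.04 ± 0.17 and the endothelial adhesion gene PECAM1 at -1.73 ± 0.63. The epithelial genes not called were EPCAM at 0.079 ± 0.10, KRT8 at -0.35 ± 0.17 and KRT19 at -0.26 ± 0.15. These were named after their values were seen, and their part in the annexin values was not tested.

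Of the 10 annexin genes, 3 were lower and 1 was higher in group 8, and 6 were not called. ANXA1 and ANXA10 fell most, ANXA11 fell with a smaller value, and ANXA3 rose. Of all genes listed, 14.1% were called, 6.78% higher and 7.28% lower. All 10 annexin genes belong to the 13609 protein-coding genes whose adjusted p is below 1 (the remaining genes are listed at 1), of which 26.0% were called, 12.7% higher and 13.4% lower. The median log2 fold change of the 10 was -0.056, against 0.0048 over those protein-coding genes, and the median size without sign was 0.34 against 0.30.

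**Figure D1:**
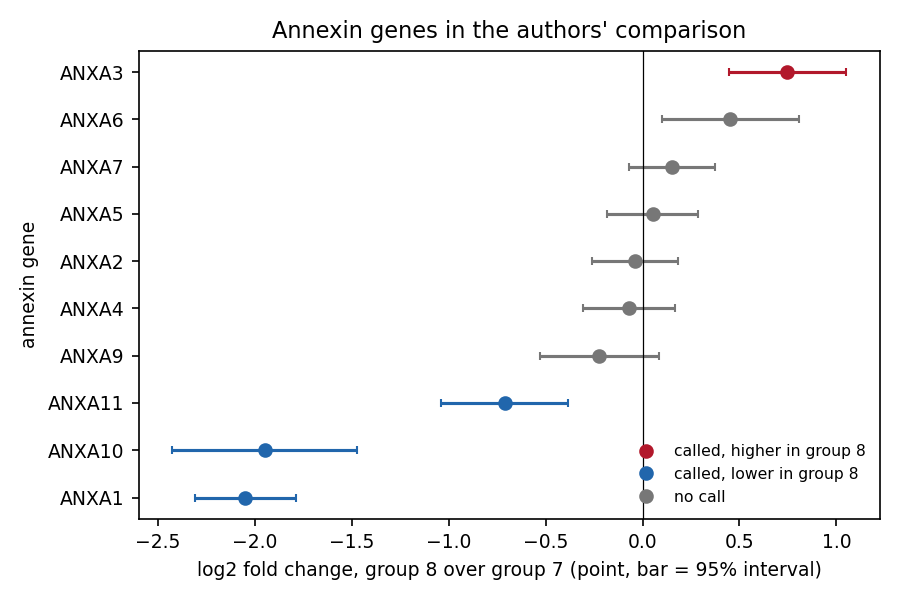
Log2 fold change of group 8 over group 7 for each annexin gene (x axis) by gene (y axis), from the authors' deposited table. Points are the deposited values and bars are 95% intervals from the implied standard errors. ANXA1 and ANXA10 lie near -2, ANXA11 at -0.71 and ANXA3 at 0.75, and the intervals of ANXA2, ANXA4, ANXA5, ANXA7 and ANXA9 include 0.

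ANXA1 had the largest fall of the family. Its product is induced by glucocorticoids, restrains some phospholipase A2 enzymes and signals through formyl peptide receptors to limit leukocyte recruitment. The gene (ENSG00000135046) lies on chromosome 9 from 73151757 to 73170393 on the plus strand of GRCh38. The authors' deposited table gives it -2.05 ± 0.13, which puts group 8 at 24.2% of the group 7 level (4.14-fold lower), and an adjusted p of 1.76e-51. Its p-value ranked 15 of 27653, counted from the smallest. In size, this change exceeded that of 98.2% of the 13609 protein-coding genes.

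ANXA10 fell by nearly as much but with a wider error. It encodes a member of the family known from gastric epithelium, in which several of the usual calcium-binding motifs have been lost. The gene (ENSG00000109511) lies on chromosome 4 from 168092515 to 168187690, plus strand. The authors' deposited table gives -1.95 ± 0.24, which puts group 8 at 25.9% of the group 7 level (3.86-fold lower), and an adjusted p of 1.03e-13. Its 95% interval of -2.43 to -1.47 overlapped that of ANXA1, -2.31 to -1.79, and the difference between the genes was not tested.

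ANXA11, whose product has a long N-terminal tail and tethers RNA granules to lysosomes, was the third gene called lower. The gene (ENSG00000122359) lies on chromosome 10 from 80150889 to 80205572, minus strand. The authors' deposited table gives -0.71 ± 0.17, which puts group 8 at 61.1% of the group 7 level, and an adjusted p of 0.000265. Its interval of -1.04 to -0.39 did not reach those of ANXA1 or ANXA10.

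ANXA3 was the annexin gene called higher. Annexin A3 is a soluble membrane-binding family member with phospholipase A2 inhibiting activity in vitro. The gene (ENSG00000138772) lies on chromosome 4 from 78551519 to 78610451, plus strand. The authors' deposited table gives 0.75 ± 0.15, a 1.68-fold higher level in group 8, with an adjusted p of 2.67e-05. ANXA3, ANXA5 and ANXA10 share chromosome 4 and had values of 0.75, 0.052 and -1.95.

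ANXA6 narrowly missed the threshold. Its product carries a duplicated core, and its coding length of 2019 bases is the longest among the 10 genes in GENCODE. The gene (ENSG00000197043) lies on chromosome 5 from 151100712 to 151157882, minus strand. Its value in the authors' deposited table was 0.45 ± 0.18 with an unadjusted p of 0.0123 and an adjusted p of 0.0552, and its 95% interval of 0.098 to 0.81 overlapped that of ANXA3, 0.44 to 1.05.

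The other 5 genes had small values, with errors from 0.11 for ANXA2 to 0.16 for ANXA9. ANXA2, whose product pairs with S100A10 and binds plasminogen activators at the cell surface (ENSG00000182718, chromosome 15, 60347134 to 60402883, minus strand), had -0.040 ± 0.11 in the authors' deposited table. Its 95% interval of -0.26 to 0.18 bounds the change that these libraries allow. ANXA5, the phosphatidylserine-binding protein used as an apoptosis probe (ENSG00000164111, chromosome 4, 121667955 to 121697113, minus strand), had 0.052 ± 0.12 and an interval of -0.18 to 0.29.

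ANXA4, an epithelial family member linked to exocytosis (ENSG00000196975, chromosome 2, 69644425 to 69827100, plus strand), had -0.072 ± 0.12 in the authors' deposited table and an interval of -0.31 to 0.17. ANXA7 or synexin, first known for fusing chromaffin granules (ENSG00000138279, chromosome 10, 73375101 to 73414076, minus strand), had 0.15 ± 0.11 and an interval of -0.072 to 0.37. ANXA9, whose core has lost its calcium-binding sites (ENSG00000143412, chromosome 1, 150982017 to 150995634, plus strand), had -0.22 ± 0.16 and an interval of -0.53 to 0.082. Adjusted p values of the 5 genes ran from 0.336 for ANXA9 to 0.858 for ANXA2. A missed threshold does not show that these genes were equal in the groups, and the intervals give what remains possible.

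In the order of values from ANXA1 at the bottom to ANXA3 at the top, 8 of 9 neighbouring pairs had overlapping 95% intervals. The exception was the gap of 1.24 on the log2 scale between ANXA10 and ANXA11. ANXA1 and ANXA10 lay near a log2 fold change of -2, and the other 8 genes lay between -0.71 and 0.75. Overlap between neighbours does not make these 8 a group. ANXA11 at -1.04 to -0.39 and ANXA3 at 0.44 to 1.05 had intervals apart and were called in opposite directions. The genes were sorted by the same values that were compared, which favours overlap between neighbours. The count of overlaps and the gap are therefore descriptions with no independent weight. The share of overlapping neighbours over all genes was not computed.

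**Figure D2:**
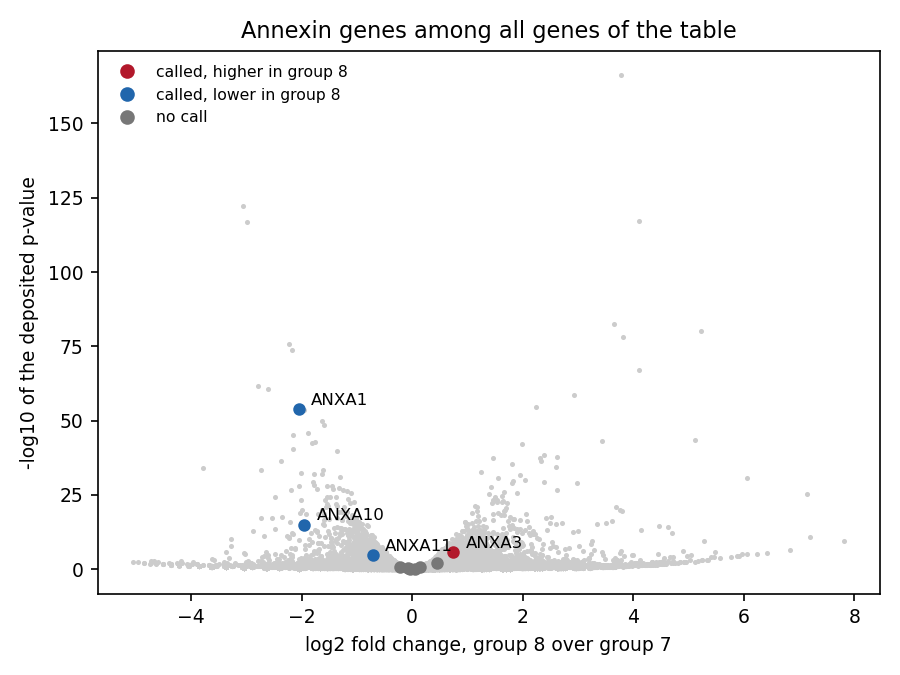
Log2 fold change of group 8 over group 7 (x axis) against -log10 of the deposited p-value (y axis) for all genes with a p-value in small grey points, with the 10 annexin genes as larger points (red called higher, blue called lower, dark grey no call). ANXA1 and ANXA10 stand on the lower side at -2.05 and -1.95, while the 6 annexin genes without a call lie near the base between -0.22 and 0.45.

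Sequence features that played no part in choosing the genes were read for all 10. For each gene this was the window of 250 bases before the RefSeq start (GRCh38.p14) nearest to the annotated gene start. The annotated start lies 4897 bases away for ANXA2, 617 for ANXA4 and at most 275 for the others. All windows but that of ANXA4 hold exon bases of their gene, from 18 in ANXA7 to 250 in ANXA3 and ANXA9. In ANXA1 the 108 exon bases hold the TATA box. Windows are shown for the 3 genes called lower, because ANXA1 and ANXA10 differ there from ANXA11. Each is printed up to the first base that GENCODE places in an exon of the gene, with 30 further bases around the TATA box of ANXA1. Capitals mark matches, on either strand, to the words searched. These were the TATA box as TATAAA, the CCAAT box under its own name, and the GC box as GGGCGG, copies of which can overlap. The others were the AP-1 site as TGANTCA, the E-box as CACGTG, and the core of the antioxidant response element as TGACNNNGC. The ANXA1 stretches are chr9:73151615-73151756 and chr9:73151822-73151851 and the ANXA10 stretch is chr4:168092287-168092514, all on the plus strand, and the ANXA11 stretch is chr10:80205573-80205787 on the minus strand.
ANXA1 upstream: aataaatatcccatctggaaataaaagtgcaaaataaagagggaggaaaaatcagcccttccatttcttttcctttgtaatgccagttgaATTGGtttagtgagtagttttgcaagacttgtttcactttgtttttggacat
ANXA1 TATA box: cctttaaaatccTATAAAatcagaagccca
ANXA10 upstream: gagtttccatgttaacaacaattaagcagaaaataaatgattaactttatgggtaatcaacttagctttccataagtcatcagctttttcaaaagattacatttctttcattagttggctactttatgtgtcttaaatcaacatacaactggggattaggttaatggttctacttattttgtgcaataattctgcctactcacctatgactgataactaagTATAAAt
ANXA11 upstream: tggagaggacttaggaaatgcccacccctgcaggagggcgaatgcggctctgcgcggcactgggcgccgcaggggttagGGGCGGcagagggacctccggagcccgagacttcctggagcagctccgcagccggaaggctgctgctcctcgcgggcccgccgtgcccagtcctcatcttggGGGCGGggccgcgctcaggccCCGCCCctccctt
The ANXA3 and ANXA9 windows lie wholly within annotated exons and are not printed.

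The ANXA1 and ANXA10 windows were poor in G and C, at 38.4% and 31.2%, and held 0 CpG pairs each. The other 8 windows held 4 to 36 CpG pairs at 58.0% to 78.8% G and C, with 73.6% and 22 CpG pairs for ANXA11 and 64.0% and 18 for ANXA3. Over all 35116 windows in the RefSeq table the median was 58.0%, and 6.06% of windows had no CpG. Those windows cover 27305 gene names, some with several starts, whereas each annexin gene has only the window nearest its annotated start. Shares over all windows are thus from an unlike set. TATAAA began 31 bases before the start of ANXA1 and 29 before that of ANXA10. ANXA2, which was not called, also held it, 31 bases before its start in a window with 28 CpG pairs. Of all windows, 10.7% held TATAAA, counted at any position and on either strand, so this share is not for a like position. A window with TATAAA, counted likewise, and no CpG was found in 1.83% of all windows. This combination was not set in advance and is the one that ANXA1 and ANXA10 hold. Its share is a description with no independent weight.

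ANXA11 held 3 GC boxes, as did ANXA2 and ANXA7, and 6 of the 10 windows held at least 1, against 42.6% of all windows. CCAAT was present in the windows of ANXA1, ANXA6 and ANXA7, against 32.0% of all windows. The AP-1 word was present for ANXA2 alone among the 10 (6.57% of all windows), the E-box for ANXA6 alone (6.34%) and the antioxidant response core in 0 of 10 (10.9%). None of the 6 words was present in the ANXA3 or ANXA9 window. A match is a description of letters in this window and not evidence of a bound factor.

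The word GACGTC was searched in 3' UTRs because of earlier results from the same data, so its presence is a description with no independent weight. It was present in 1 of 10 annexin genes, ANXA1. It began at base 272 of a 3' UTR of 286 bases, read on the transcript strand from GENCODE release 29, and the site is shown from 11 bases before the word to the end of the UTR, with the word in capitals.
ANXA1 site: gaaaataaaatGACGTCacaagacaa
The longest 3' UTRs of the other 9 genes, from 256 bases in ANXA10 to 4964 in ANXA11, did not hold it. Of 15431 protein-coding genes of the table with a 3' UTR of at least 50 bases, 5.77% held the word.

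Reads of annexin genes were open to sharing with few other genes. Among the 100-base windows of each gene's longest coding transcript, 8 of 10 genes had none in a transcript of another gene in GENCODE, and no window was shared between members. For ANXA2, 21.3% of windows were also found in the processed pseudogene ANXA2P2, which had 0.18 ± 0.12 and an adjusted p of 0.293 in the authors' deposited table, so the split of reads between the pair is uncertain. ANXA2P1, another ANXA2 pseudogene, shared none of these windows and had 0.67 ± 3.13, an error that leaves its value undetermined. For ANXA7, 0.467% of windows were shared with the antisense gene AL512656.1, which covers 105 exon bases of ANXA7 on the other strand and had -0.23 ± 1.84. The library protocol in the labels does not mark strand, so reads over those bases cannot be told apart. AAK1 and AC092431.1 overlap the span of ANXA4, and AC087385.1 that of ANXA2, with 0 exon bases in common, and their values were 0.068 ± 0.17, -1.66 ± 3.05 and -1.53 ± 0.90. The 4 genes called, ANXA1, ANXA10, ANXA11 and ANXA3, had neither an overlapping gene in the table nor a shared window.

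The near-identical copies ANXA8 and ANXA8L1, which are not among the 10 genes, had -0.17 ± 0.19 and -0.16 ± 0.18 in the authors' deposited table, with the split between them uncertain.

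Partners that bind annexins were then set beside them. Each list's share of calls is given among its genes with an adjusted p below 1, to be read against the 26.0% of protein-coding genes. Medians are over all genes of a list with a row, including those that this share leaves out. The lists were chosen with earlier results of these data known, so no share was tested against that background. For S100 proteins and other partners, 1 was higher and 2 were lower among 10 genes with a row, with a median log2 fold change of -0.18. The 3 calls were 30% of the list, near that background. S100A10, the S100 subunit of the annexin A2 complex, fell in group 8 with -0.48 ± 0.15 and an adjusted p of 0.0076 in the authors' deposited table, whereas ANXA2 had -0.040 ± 0.11. The difference between S100A10 and ANXA2 was not tested. S100A4, a calcium-binding protein that can bind annexin A2, had -1.71 ± 0.23, and HLTF, a chromatin factor that binds the annexin A2 complex in the nucleus, rose at 0.55 ± 0.17. S100A11, the partner of annexin A1, had -0.11 ± 0.14 with an adjusted p of 0.627, and S100A6, a partner of annexin A11, had -1.03 ± 0.43 with an adjusted p of 0.0702. S100A11 and S100A6 were chosen for mention after their values were seen.

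Phospholipase A2 enzymes release arachidonic acid, and annexin A1 is known to restrain some of them. No link between ANXA1 and the genes of this list was tested. The list held 10 genes, and the 6 with a row were 5 phospholipase A2 genes and the cyclooxygenase gene PTGS2, chosen for mention after its value was seen. Of these 6, 1 was higher and 0 were lower, and the call was 1 of 5 genes with an adjusted p below 1. The count covers no annexin A1 receptor. PLA2G4C, a cytosolic phospholipase A2, rose at 3.98 ± 0.93 with an adjusted p of 0.000251 in the authors' deposited table. Its error leaves the fold poorly fixed. The list's median of -0.0034 and mean of 0.68 are over all 6 genes. These include PLA2G4B, chosen for mention after its value was seen, at -0.18 ± 3.97, an error that leaves its value undetermined. The sign of the median is therefore not fixed.

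Genes of plasminogen activation, which annexin A2 with S100A10 promotes at the cell surface, were called in both directions. In this list 1 was higher and 2 were lower among 8 genes with a row, with a median of -0.13. The 3 calls were 42.9% of 7 genes with an adjusted p below 1. The gene that this share leaves out but the median includes is SERPINB2, chosen for mention after its value was seen. It had -2.04 ± 4.04, an error that leaves its value undetermined, so the sign of the median is not fixed. PLAU, the urokinase activator, rose at 0.81 ± 0.16, while SERPINE2, an inhibitor of plasminogen activators, and ENO1, an enolase that also binds plasminogen, fell at -0.62 ± 0.13 and -0.37 ± 0.12. PLAUR, the urokinase receptor chosen for mention after its value was seen, had 0.098 ± 0.17.

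For plasma membrane repair genes, 0 were higher and 5 were lower among 24 genes with a row, with a median of -0.28. The 5 calls were 25.0% of the 20 genes with an adjusted p below 1, close to the 26.0% of protein-coding genes, of which 13.4% were called lower. Examples in the authors' deposited table were MYOF, a ferlin that reseals membranes, at -0.77 ± 0.11, CAPNS1, the calpain small subunit, at -0.54 ± 0.12, SYT7, a synaptotagmin of lysosome exocytosis, at -0.59 ± 0.17, and CAV1, the caveolar coat protein, at -0.41 ± 0.12. The median also includes the 4 genes listed at an adjusted p of 1, whose errors are large. These were OTOF at -2.19 ± 1.515, TRIM72 at -2.04 ± 3.82, FER1L5 at -1.22 ± 1.35 and FER1L6 at -2.05 ± 4.04, chosen for mention after their values were seen. DYSF, the muscle ferlin dysferlin, likewise chosen, had -0.18 ± 0.15.

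Phosphatidylserine exposure and binding is the process that annexin A5 reports on. In that list 9 were higher and 1 was lower among 22 genes with a row, with a median of 0.47. The 10 calls were 47.6% of the 21 genes with an adjusted p below 1, beside 26.0% of protein-coding genes, of which 12.7% were called higher. Because the list was chosen with earlier results of these data known, this share has no independent weight and was not tested. GAS6 and PROS1, bridging ligands of TAM receptor kinases, rose at 0.92 ± 0.12 and 1.99 ± 0.33, as did CD47, the inhibitory signal to phagocytes, at 0.99 ± 0.14. MFGE8, another bridging protein, fell at -0.64 ± 0.13. Of the 3 TAM receptors, chosen for mention after their values were seen, MERTK and AXL had 1.79 ± 0.42 and 0.65 ± 0.18 and were called. TYRO3 had -0.15 ± 0.15 with an adjusted p of 0.532. ANXA5 itself had 0.052 ± 0.12.

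For trafficking partners of annexins A7 and A11, 0 were higher and 1 was lower among 6 genes, with a median of -0.18. That call was 16.7% of the list, below the background of 26.0%. SEC13, a coat protein of COPII vesicles, had -0.68 ± 0.18 with an adjusted p of 0.00164 in the authors' deposited table. Over all 6 lists, 12 were higher and 11 were lower among 76 genes with a row. These 23 calls were 33.3% of the 69 genes with an adjusted p below 1, beside 26.0% of protein-coding genes, where calls were likewise near evenly split at 12.7% higher and 13.4% lower.

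**Figure D3:**
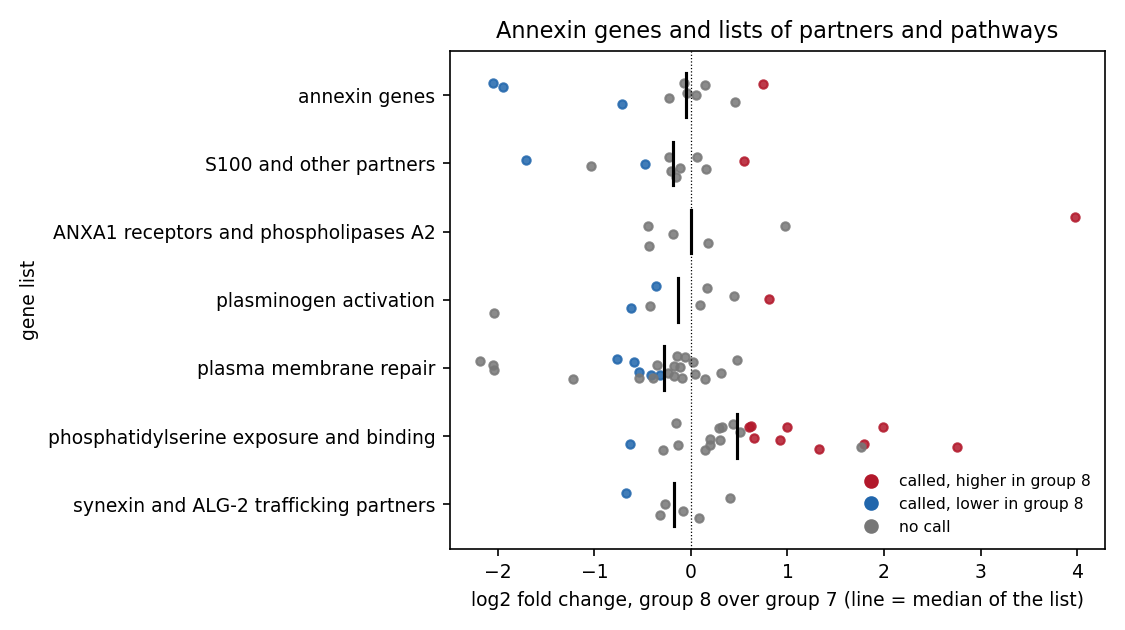
Log2 fold change of group 8 over group 7 (x axis) for each gene of the annexin family and of 6 lists of partners and pathways (y axis), from the authors' deposited table. Points are genes with small vertical offsets for legibility (red called higher, blue called lower, grey no call). The black line is each list's median over all its genes with a row, including genes with large errors. It runs from -0.28 for plasma membrane repair to 0.47 for phosphatidylserine exposure and binding.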

How the data were processed

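Poly-A RNA of shPCDH1 and shNC cells, 1 labelled sample each, was sequenced without strand marking, per the labels' protocols. The submitters' processing notes name DESeq2 1.20.0, featureCounts 1.5.0-p3, HISAT2 2.0.5 and CASAVA, with no roles. The genome build is not given in the sources used here, and all 10 genes match GENCODE release 29 (GRCh38) in position.

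The authors deposited a log2 fold change of group 8 over group 7, a p-value and an adjusted p-value for each gene. The 20 columns of library or group values match no label and were not used, so no count model was fitted and depth is not given here. Gene start, end and length are annotation.

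The implied standard error is the absolute log2 fold change over the normal quantile of the two-sided p, and 95% intervals span 1.96 of it on each side. Calls use the deposited adjusted p under 0.05. Members and gene lists were chosen with earlier results of these data known. All members, PCDH1, the read-sharing genes and, per list, at most 4 called genes with the smallest adjusted p were named, and exceptions are stated. The implied standard error and the Benjamini-Hochberg adjustment were checked on simulated data with Python 3.11.15, pandas 2.3.3 and SciPy 1.17.1. The simulated p-values came from the same Wald formula, so this cannot show that the deposited p-values did. The other steps were not checked in this way. Alternatives were thresholds of 0.01 and 0.10, minimum log2 sizes of 0.5 and 1, other Benjamini-Hochberg adjustments, subtraction of the protein-coding median, and the mean for the median.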

Additional observations from a re-analysis of the deposited data

How the results depend on the processing

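The 4 annexin calls, ANXA1, ANXA10, ANXA11 and ANXA3, were the same genes with an adjusted p threshold of 0.01, a minimum log2 size of 0.5 and adjustment over every deposited p-value or over protein-coding genes. With a threshold of 0.10, ANXA6 joined them, giving 5. With a minimum log2 size of 1, ANXA1 and ANXA10 remained, giving 2 annexin calls, and 6 in place of 23 calls over the partner and pathway lists, because the setting asks for larger changes. Under it the calls numbered 1 in place of 3 for S100 and other partners, 4 in place of 10 for phosphatidylserine exposure and binding, and 0 in place of 3, 5 and 1 for plasminogen activation, membrane repair and trafficking. Membrane repair had 3 calls in place of 5 at a minimum size of 0.5. At a threshold of 0.10, trafficking had 4 calls in place of 1 and the phospholipase list 2 in place of 1. The share of all genes called under these alternatives was not computed. The changed counts therefore cannot be set against a background. Centring on 0.017, the median of all protein-coding genes with a row (0.0048 over those with an adjusted p below 1), turned no annexin value. The mean of the 10 annexin log2 fold changes was -0.36 against the median of -0.056, and ANXA1 and ANXA10 hold the lowest values. Leaving out each library, another normalization or a filter on low counts was not run, since no library column matches a label. No paired analysis was possible because the columns carry no replicate numbers from the labels. What depth limits is not given here, since the library values were not used.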
